A study of Mus musculus with 6 samples.

Results

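The transcriptome of cultured wild-type mouse osteoclasts is described here from 3 RNA-seq libraries, the wild-type group of a series of 6. All 6 libraries were made from C57BL/6 bone marrow-derived osteoclasts; the other 3, labelled Tet2Rank–/–; Tet3aRank+/–, were not used and no genotypes were compared. Per the labels' protocols, marrow cells were kept in M-CSF, a macrophage growth and survival factor, for 2 days, and the adherent cells were then cultured with RANKL and M-CSF to form osteoclasts. Neither the time in RANKL, the age of the animals nor whether each library is 1 animal is stated in the labels, and the spread between libraries may therefore be technical or between animals. The labels list 1 female and 2 male wild-type samples, without tying them to the columns of the count table. Columns are therefore called library 1, library 4 and library 6, after the number that opens each column name. Of these, only the column name of library 6 holds a further number, whose meaning is not given in the sources used here. Whether library 6 was prepared or processed apart is thus not known. Such a difference could not be told apart from a difference in expression.

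Genes were kept where they had a level of at least 10 CPM (the gene's count scaled to the library's effective total by edgeR's TMM method) in each of the 3 libraries. This held for 8651 of the 23204 genes in the table, or 37.3%. Of these 8651 genes, called members below, 8563 (99.0%) are protein coding in the GENCODE M21 annotation. Spread between libraries is given as the coefficient of variation (CV), the standard deviation over the 3 libraries as a percent of their mean.

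Osteoclasts are multinucleated cells that resorb bone. They arise by fusion of precursors of the monocyte and macrophage lineage when RANKL binds its receptor RANK, which activates NF-kB, AP-1 and then NFATc1, the factor that drives the resorption genes. A mature cell attaches through integrins and an actin ring, acidifies the space beneath it with a vacuolar proton pump and a chloride channel, and secretes cathepsin K and metalloproteases that digest the matrix.

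The promoters of a pair of osteoclast protease genes and of a macrophage gene are shown as chosen examples of genes more than 2-fold apart between libraries. Ctsk, encoding cathepsin K, and Mmp14, encoding a membrane-bound collagenase, were highest in library 6. Lyz2, encoding the macrophage lysozyme, was lowest there. Each line is the 250 bases before a RefSeq transcript start (GRCm38.p6), 5′ to 3′ on the gene's strand, at chr3:95498960-95499209 on the plus strand for Ctsk, chr14:54431348-54431597 on the plus strand for Mmp14 and chr10:117282273-117282522 on the minus strand for Lyz2. Capitals mark GAGGAA (or TTCCTC on the other strand), the core read by PU.1, in Ctsk, and GGAAA (or TTTCC), the core read by NFAT factors, in Mmp14 and Lyz2.
Ctsk: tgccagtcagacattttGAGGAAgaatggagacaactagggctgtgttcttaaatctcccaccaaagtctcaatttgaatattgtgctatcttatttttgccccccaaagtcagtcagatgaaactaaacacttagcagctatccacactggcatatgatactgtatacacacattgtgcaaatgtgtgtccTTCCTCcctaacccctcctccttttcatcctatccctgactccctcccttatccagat
Mmp14: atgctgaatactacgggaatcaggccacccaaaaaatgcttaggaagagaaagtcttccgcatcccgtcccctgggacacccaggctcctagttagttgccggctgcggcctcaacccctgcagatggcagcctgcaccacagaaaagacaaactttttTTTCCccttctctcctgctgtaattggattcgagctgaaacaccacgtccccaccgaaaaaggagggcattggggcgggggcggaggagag
Lyz2: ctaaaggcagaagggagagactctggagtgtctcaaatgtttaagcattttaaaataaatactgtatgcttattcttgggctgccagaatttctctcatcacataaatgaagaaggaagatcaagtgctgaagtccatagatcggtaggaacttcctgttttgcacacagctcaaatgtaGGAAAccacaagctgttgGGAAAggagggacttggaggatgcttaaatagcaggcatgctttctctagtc

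The Ctsk window held 2 matches to the PU.1 core and none to the NFAT core, the Mmp14 window held 1 match to the NFAT core, and the Lyz2 window held 2. None of the 3 windows held the AP-1 motif TGANTCA or the MITF motif CATGTG on either strand. Promoter windows were in the table for 7003 of 8650 distinct member symbols, giving 9004 windows. GGAAA was present in 54.0% of member windows and in 55.6% of all 32851 windows, and GAGGAA was present in 23.0% and 23.3%. TGANTCA was present in 4.31% of member windows against 6.75% of all windows, and CATGTG in 6.83% against 12.3%. GAGGAA overlaps GGAAA wherever an A follows it, so these shares are not independent of each other. A match describes letters in the window and not a bound site. Among members more than 2-fold apart between their highest and lowest library, those highest in library 6 held GGAAA in 55.7% of 185 windows and GAGGAA in 26.5%. Those lowest in library 6 held GGAAA in 54.7% of 318 windows and GAGGAA in 30.8%. TGANTCA was present in 12 of the former 185 windows and 21 of the latter 318, and CATGTG in 12 and 35.

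The libraries held 8794973, 12354672 and 12845879 counts (libraries 1, 4 and 6), and each library stood apart in some way that bears on the values below. Messages of pituitary hormones, which bone marrow cells are not known for, summed to 2598 CPM in library 1, 17111 in library 4 and 0.313 in library 6. Growth hormone (Gh) alone had 2064 CPM in library 1, 14648 in library 4, where it was the most abundant gene, and 0 counts in library 6. Pomc, which encodes the ACTH precursor, had 496 CPM in library 1, 2189.5 in library 4 and 0.313 in library 6. In library 4 there were 24 genes, counted over the whole table, at 10 CPM or more that were below 1 CPM in both other libraries. No such gene was found in library 1 or library 6, where predicted genes, genes with clone-based names and ribosomal protein genes were not searched. The count for library 4 therefore covers more genes than the search in the others. Xist, expressed from the inactive X chromosome, had 844 CPM in library 1, 219.6 in library 4 and 0.0782 in library 6, whereas the Y-linked Ddx3y had 3.11, 67.6 and 75.7 CPM. Library 4 thus held Xist together with all 4 Y-linked genes examined. There were 6 annotated pseudogenes with mean levels over 1000 CPM, 5 of them on chromosome 1 in a nuclear copy of mitochondrial DNA, and together they took 2.12% of counts in library 1, 3.07% in library 4 and 0.000864% in library 6. The table itself had 0 rows from the mitochondrial chromosome. None of the hormone genes, sex-linked genes or 6 pseudogenes is a member, because each fell below 10 CPM in at least 1 library. Their part in the results below was not tested.

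**Figure D1:**
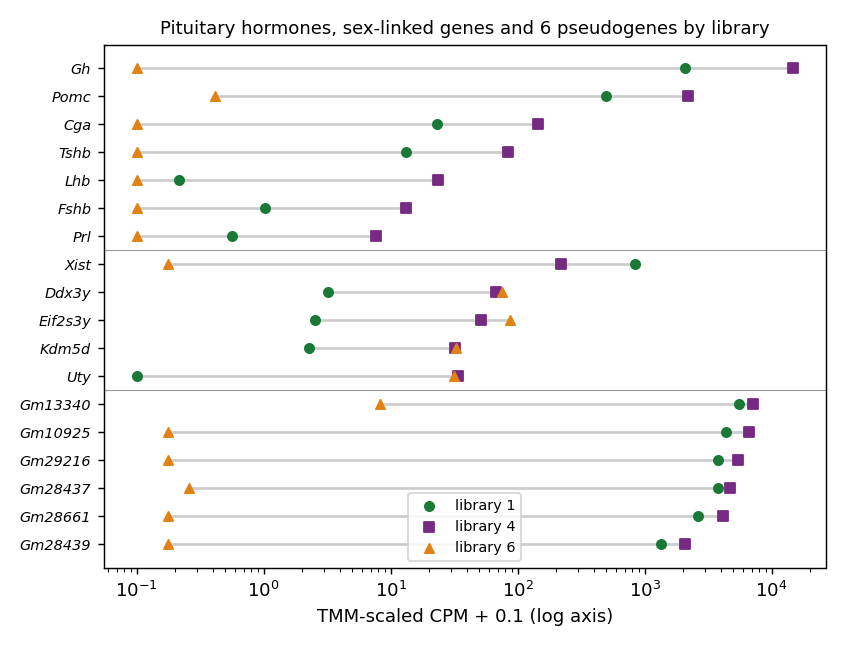
CPM + 0.1 on a log axis for 7 pituitary hormone genes, 5 sex-linked genes and 6 pseudogenes, 1 point per library. The hormone genes and pseudogenes were below 10 CPM in library 6, and library 4 had the highest level of each; Xist and the Y-linked genes were both present in library 4.

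Markers of other cells also differed. For 17 stromal and osteoblast markers the summed level was 1477 CPM in library 1, 1539 in library 4 and 3884 in library 6. The 14 neutrophil markers summed to 419, 388 and 1042 CPM. The summed level of the 21 macrophage markers was lowest in library 6, with 21815 CPM in library 1, 16802 in library 4 and 10941 in library 6. Lyz2 alone gave 13586, 10448 and 6464 CPM of these sums. Of the 18 macrophage markers that are members, 14 were lowest in library 6 and 4 in library 4. Endothelial markers summed to 36.4, 74.6 and 24.4 CPM and erythroid markers to 16.1, 60.3 and 1.49 CPM, and neither list had a member. B cell, T and NK cell, mast cell and megakaryocyte lists had 0 members each, and Cd3g, Tpsb2 and Klf1 had 0 counts in all 3 libraries. The osteoblast marker Bglap had 0 counts in libraries 4 and 6. In bulk RNA a change in the number of cells of a type and a change in RNA per cell cannot be told apart.

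The cells carried the markers of their label. Mmp9 (gelatinase B; chr2:164940780-164955850, plus strand), Ctsk (chr3:95499256-95509362, plus strand), Acp5 (tartrate-resistant acid phosphatase; chr9:22126727-22135711, minus strand) and Nfatc1 (chr18:80606205-80713071, minus strand) all had more than 700 CPM in every library. Positions are those of the deposited table, in mm10. Mmp9 had 5774 CPM in library 1, 4875 in library 4 and 13784 in library 6, where it was the most abundant gene. Ctsk had 5671, 4761 and 11817 CPM in the same order. Acp5 had 4033, 3479 and 8579 CPM. All 3 of these genes were close in libraries 1 and 4 and more than 2-fold higher in library 6. Nfatc1 had 748, 746 and 1247 CPM and ranked 85 of all genes by mean CPM. The summed level of the 4 markers was 16225 CPM in library 1, 13861 in library 4 and 35427 in library 6.

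By mean CPM the leading member was Lyz2, at 10166 ± 3570 (SD, n = 3). It was followed by Psap (prosaposin, a lysosomal activator precursor; 9953 ± 2641), Eef1a1 (translation elongation; 8776 ± 404), Mmp9 (8144 ± 4905), Ctsk (7417 ± 3838) and Ftl1 (ferritin light chain; 7284 ± 848). Acp5 (5364 ± 2799), Fth1 (ferritin heavy chain; 5082 ± 992) and Ctsb (cathepsin B; 4992 ± 1586) came next among members. The leading genes thus combined lysosomal and resorption proteins with iron storage and translation. Gh ranked 7 by mean CPM only through libraries 1 and 4 and is no member. Reads of Lyz2 and Lyz1, near-identical copies, and of genes with many processed copies such as Eef1a1, Ftl1 and Fth1 could be split between loci, so their levels are uncertain.

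Since CPM grows with transcript length, levels of different genes were compared per kilobase of merged exons. On that scale Lyz2 was again the leading gene, at 7725 CPM per kb. Leaving out Gh, which is no member (6463 CPM per kb), the next of the named genes were Ftl1 at 5436, Ctsk at 4905, Psap at 3627 and Eef1a1 at 3520. Acp5 (2642 CPM per kb) and Mmp9 (2301) ranked 12 and 13, and B2m, the light chain of MHC class I, was rank 41 by CPM and rank 15 per kilobase, at 1769.9 CPM per kb. Of the 20 leading members by CPM, 11 were also among the 20 leading members per kilobase.

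**Figure D2:**
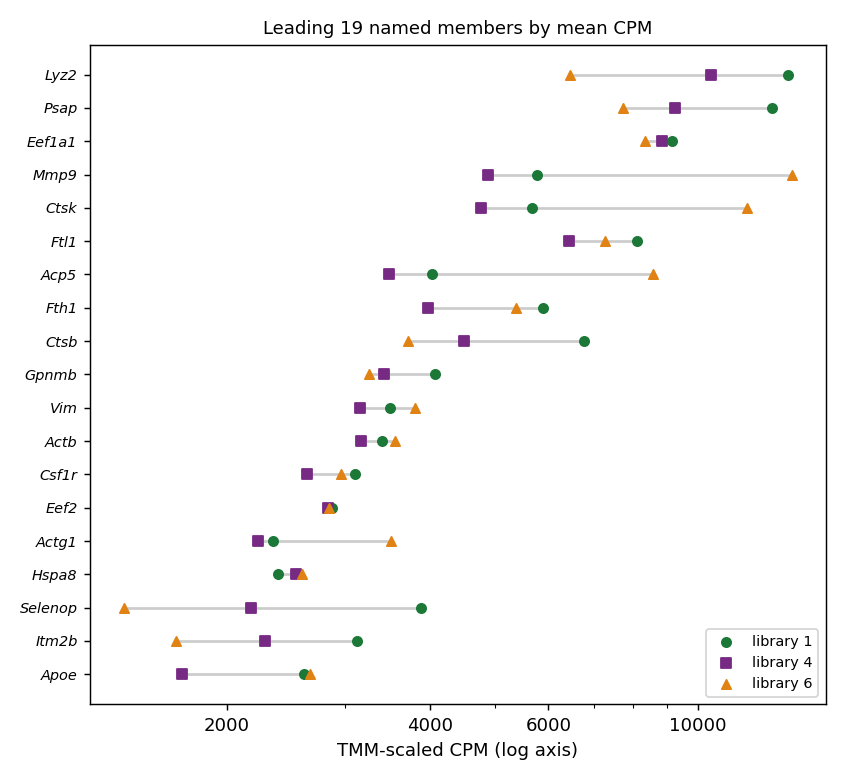
TMM-scaled CPM on a log axis for the 19 leading named members, 1 point per library, ordered by mean CPM. Mmp9, Ctsk and Acp5 were highest in library 6, Lyz2, Psap, Ctsb and Selenop were lowest there, and Eef2 and Hspa8 lay close together in all 3.

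Several of the leading genes changed rank between libraries. Lyz2 was rank 1 in library 1 at 13586 CPM, rank 2 in library 4 at 10448 and rank 7 in library 6 at 6464. Mmp9 was rank 7, 9 and 1, Ctsk rank 8, 10 and 2, and Acp5 rank 12, 15 and 3. Selenop, a secreted selenium carrier, was lowest in library 6, with 3888 CPM in library 1, 2171 in library 4 and 1406 in library 6. Of the leading 20 genes of each library, 18 were shared by libraries 1 and 4, and 14 by library 6 with either of the other two. The leading 20 held 4 of the pseudogenes above in library 1, 5 of them and Gh in library 4, and none of these in library 6. Over members alone, library 6 shared 16 of its leading 20 with each of the others, and libraries 1 and 4 again shared 18. The leading 10 genes by mean CPM, Gh included, held 7.30%, 7.25% and 7.27% of the counts. It took 820 genes to reach 50% of the counts in library 1, 921 in library 4 and 812 in library 6.

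The abundance distribution had a long upper tail. The middle member had a mean of 51.6 CPM, with quartiles at 27.2 and 103.8 CPM. A mean of 100 CPM or more was reached by 2247 members, 1000 CPM by 67 and 5000 CPM by 8. Members held 95.0%, 90.7% and 97.8% of the counts in libraries 1, 4 and 6. A further 1376 genes reached 10 CPM in only 1 or 2 libraries, of which 607 did so in library 4 alone, 160 in library 6 alone and 85 in library 1 alone. Conversely 303 genes fell short of 10 CPM in library 6 alone, 152 in library 1 alone and 69 in library 4 alone. The floor itself separated genes with little between them: Bora, Tmem41a and Khk had 10.0 CPM in their lowest library, and Dnajc4, Acss1 and Caap1 had 9.94.

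The median CV of the members was 12.4%, with quartiles at 7.67% and 19.9% and a largest value of 132%. Counting alone would give a median CV of 4.20%, and 852 members (9.85%) lay below the CV that counting would give for them. edgeR's common biological coefficient of variation, over 12261 genes, was 26.3%. Over the genes kept for each remaining pair it was 30.7% without library 1, 24.4% without library 4 and 25.7% without library 6. Members whose highest library was more than 2 times the lowest numbered 510, which is 5.9% of the 8651 and the background for every such count below. Of these, 189 (2.18% of members) were highest in library 1, 127 (1.47%) in library 4 and 194 (2.24%) in library 6. Libraries 1 and 4 were the closest pair, with a median absolute log2 ratio of 0.16 and 73 members more than 2-fold apart. Libraries 1 and 6 had a median of 0.24 and 337 such members, and libraries 4 and 6 had 0.24 and 310. Library 6 was above both others by more than 2-fold for 107 members and below both for 50, against 40 and 2 for library 4 and 6 and 5 for library 1. Without library 6, the members of the remaining pair numbered 8947, their median CV was 8.18% and 125 were more than 2-fold apart. Without library 4 the count was 343, and without library 1 it was 317.

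**Figure D3:**
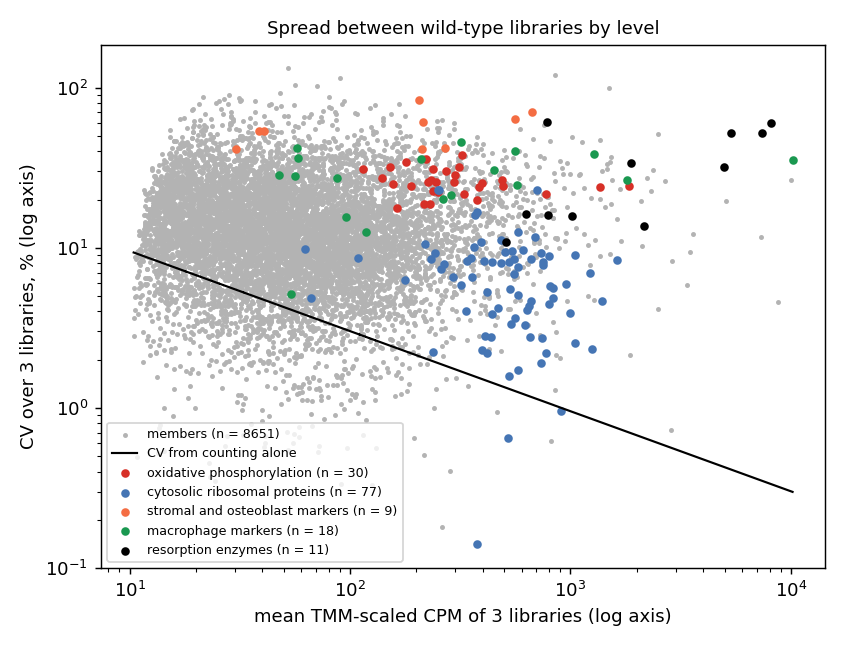
CV over the 3 libraries against mean CPM, both on log axes, for 8651 members, with 5 gene lists in colour and the CV from counting alone as a line. Ribosomal protein genes (blue, median 6.58%) lay low at high levels, whereas the leading resorption enzymes (black) and the stromal markers (orange) lay high.

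When members were ranked by mean CPM and cut into 10 bins of equal size, the median CV per bin lay between 10.7% and 15.1%. In the lowest bin it was 13.3% against 7.87% from counting, and in the highest bin 13.5% against 1.62%. The share more than 2-fold apart was 2.77% in the lowest bin and 7.75% in the highest. Among the most variable members at 50 CPM or more, 3 were highest in library 4, along with the hormones: Ptprn, a secretory granule protein, had 12.1 CPM in library 1, 131 in library 4 and 12.9 in library 6, Igfbp5, a binding protein of insulin-like growth factors, had 42.7, 207.5 and 19.3 CPM, and Cpe, a prohormone-processing enzyme, had 27.2, 124 and 18.1 CPM. The other 9 were highest in library 6. Among them were the contractile genes Acta2 (129.8, 84.5 and 405 CPM) and Tagln (50.5, 30.0 and 162 CPM), and the collagen gene Col6a1 (72.7, 110.3 and 315 CPM). Lars2, the mitochondrial leucyl-tRNA synthetase, had 242.5, 290.4 and 2018 CPM. Gm42418, an annotated gene that overlaps ribosomal RNA sequence and was singled out after its values were seen, had 506, 779.9 and 3202 CPM alongside it.

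At the other end, Gnb1, a G protein subunit, had 282, 284 and 284 CPM, and Plxnb2, a semaphorin receptor, had 813, 822 and 813 CPM. Their CVs, 0.40% for Gnb1 and 0.62% for Plxnb2, were below what counting alone would give them (1.79% and 1.06%). Eef2, the translocation factor of the ribosome, was close across libraries at a higher count, with 2868, 2828 and 2839 CPM (CV 0.73%, against 0.57% from counting).

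Gene groups are taken next in the order of their role in osteoclast formation. The median CV of all members, 12.4%, and the share highest in each library (32.3% in library 1, 27.8% in library 4 and 39.9% in library 6) are the background to each list. For list medians given without library 6, the background is the 8.18% of all members without it. By the same count 28.3% of members were lowest in library 1, 33.1% in library 4 and 38.7% in library 6.

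Receptors and proximal signal transducers were all members (22 of 22), with a median CV of 13.4% and 1 member more than 2-fold apart. Without library 4 the median CV was 8.24%, against 11.7% for all members. Csf1r, the M-CSF receptor, had 3095 CPM in library 1, 2631 in library 4 and 2953 in library 6. Tnfrsf11a, which encodes RANK, had 114, 104 and 199 CPM and was highest in library 6. The costimulatory receptor Oscar had 135, 125 and 257 CPM, whereas Trem2, a receptor that signals through the adaptor Tyrobp, had 259, 183 and 139 CPM. Library 6 was thus the highest for Oscar and the lowest for Trem2. Tyrobp itself had 849.9, 674 and 954 CPM, and Fcer1g, another adaptor of the list, had 427, 306 and 259 CPM. Syk, the kinase downstream of both receptors, had 418, 333 and 387 CPM. The NF-kB kinase subunit Chuk had 62.0, 64.1 and 61.3 CPM and the lowest CV of the list, 2.34%. Library 4 was the lowest for 17 of the 22.

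Activating transcription factors (16 of 16 members) had a median CV of 21.7%, and 11 were highest in library 6. Fosl2, an AP-1 protein, had 740.2, 700.3 and 1259 CPM, and Jdp2, another AP-1 family factor, had 554, 503 and 777 CPM. Spi1, which encodes PU.1, had 421, 359 and 541 CPM. Ppargc1b, a coactivator of mitochondrial genes, had 56.3, 49.8 and 102 CPM and was the 1 member of the list more than 2-fold apart. Mitf, a partner of PU.1 at osteoclast genes, had 115, 84.5 and 107 CPM and was not highest in library 6. Without library 6 the median CV of this list was 4.91%.

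Of the 11 repressors and lineage factors, 9 were members, and both directions occurred. Irf8, a repressor of osteoclast formation, had 131, 97.4 and 61.3 CPM, lowest in library 6. Nfkbia, the NF-kB inhibitor, had 264, 252 and 359 CPM and Tnfaip3, a deubiquitinase that damps NF-kB, had 95.5, 81.0 and 143 CPM, highest there. Bcl6, a transcriptional repressor, had 24.1, 23.4 and 24.6 CPM in the 3 libraries.

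Fusion genes (9 of 9 members) had a median CV of 27.8%, with 3 more than 2-fold apart. Dcstamp and Ocstamp, membrane proteins needed for fusion, had 154, 156 and 328 CPM and 142, 134 and 274.5 CPM, so both were close in libraries 1 and 4. In library 6 Dcstamp was more than 2-fold above both, and Ocstamp was more than 2-fold above library 4 only. The tetraspanin Cd81 had 84.0, 93.3 and 43.1 CPM and was lowest in library 6. Sirpa, a receptor for Cd47, had 1672.5, 1449 and 1418 CPM and varied least. Without library 6 the median CV was 6.83%.

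Adhesion and actin ring genes (20 of 20 members) had a median CV of 14.3% (8.89% without library 6), and 15 were highest in library 6. The integrin chain Itgb3 had 213, 189.5 and 483 CPM, and its partner Itgav had 477, 398 and 778 CPM. Vcl, the adhesion protein vinculin, had 138, 123 and 244 CPM. Itgb1, by contrast, had 496, 483 and 554 CPM, and the actin genes differed from each other: Actb had 3394, 3163 and 3555 CPM (CV 5.85%) and Actg1 had 2345, 2225 and 3499.7 CPM (CV 26.2%).

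Resorption enzymes (11 of 11 members) were abundant for their length, with a median of 825 CPM per kb against 10.8 for all members. Library 6 was highest for 6 of them, library 1 for 5. Mmp14 had 562, 457 and 1338 CPM and joined Mmp9, Ctsk and Acp5 as the 4 of the list that were more than 2-fold apart, all highest in library 6. Ctsb (6766, 4496 and 3714 CPM), Ctss (2532, 1828 and 1266 CPM), Lgmn (747, 597 and 549 CPM) and Ctsl (569, 499.9 and 459 CPM), lysosomal proteases also abundant in macrophages, were lowest in library 6, whereas the lysosomal Ctsa (930.5, 911 and 1199 CPM) and Ctsz (814, 656 and 909.5 CPM) were highest there. Ctsd, the aspartic protease cathepsin D, had 2471, 1905 and 2069 CPM. Without library 6 the median CV of the list was 15.4% in place of 31.8%.

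Acid secretion genes were higher in library 6 almost throughout. All 17 subunits of the vacuolar proton pump examined were members, and 15 were highest in library 6. Atp6v1b2 had 2028, 1728 and 2899 CPM, Tcirg1, the pump's osteoclast-enriched a3 subunit, had 1335, 1269 and 2009.7 CPM, and Atp6v0d2, the osteoclast-enriched d2 subunit, had 1262, 1043 and 1844 CPM. The exceptions were Atp6v0d1, with 202, 190.4 and 190.3 CPM, and Atp6v0a1, with 122, 106 and 83.1 CPM. All 7 genes of the ion transport list were highest in library 6. Besides transport genes, this list holds the receptor gene Calcr and the sorting nexin gene Snx10. Car2, carbonic anhydrase II, which supplies protons, had 136, 113 and 268 CPM, and the chloride-proton exchanger Clcn7 had 481, 396 and 648 CPM. Calcr, the calcitonin receptor, had 53.8, 38.5 and 129 CPM, with the highest CV of the list at 65.5%. The pump subunits had a median CV of 26.2% and the ion transport list 33.6%. Without library 6 these were 9.88% and 13.4%.

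**Figure D4:**
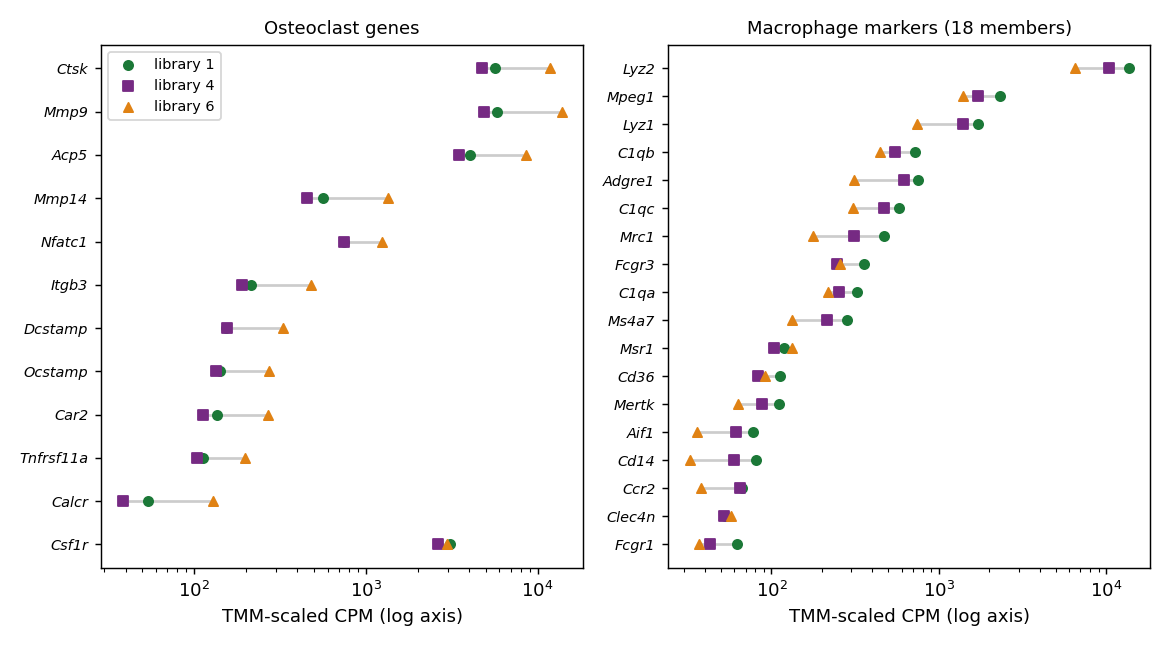
TMM-scaled CPM on a log axis for 12 osteoclast genes (left) and the 18 macrophage markers that are members (right), 1 point per library. Apart from Csf1r these chosen osteoclast genes were highest in library 6, whereas 16 of the 18 macrophage markers were highest in library 1. Of all resorption enzymes listed, 5 of 11 were highest in library 1.

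Lysosomal and vesicle genes (11 of 13 members) had a median CV of 12.5%, which without library 1 was 18.8%, against 11.8% for all members. Library 6 was highest for 7 of them and library 1 for 4. Lamp1 had 1917.5, 1475 and 1007 CPM and Lamp2 had 562, 439 and 271.5 CPM, so both of these lysosomal membrane proteins were lowest in library 6. Cd68, a macrosialin also abundant in osteoclasts, had 1021, 948.5 and 1223 CPM. Syt7, a regulator of lysosome secretion, was no member, with 5.64, 26.2 and 0.0782 CPM, in the order of the pituitary hormones.

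Among secreted factors 10 of 16 were members, with a median CV of 26.4% (10.8% without library 6). Spp1 (osteopontin) had 881, 789 and 1729 CPM and Pdgfb, a vessel growth factor, had 127, 117 and 250.4 CPM. Igf1 had 367, 224 and 145 CPM and was lowest in library 6. Sema4d, a semaphorin that acts on osteoblasts, had 637, 569.7 and 822 CPM, and Apoe had 2606, 1717 and 2658 CPM. Wnt10b and Bmp6 stayed below 3 CPM in all libraries.

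Energy metabolism genes were highest in library 6 almost throughout. All 30 nuclear genes of oxidative phosphorylation were members and all 30 were highest in library 6, against 39.9% of all members, yet none was more than 2-fold apart. Atp5b, a subunit of ATP synthase, had 1699.5, 1489 and 2349 CPM, Sdha had 733, 637 and 965 CPM and Cyc1, cytochrome c1, had 257, 247 and 463 CPM. Among TCA cycle genes 10 of 11 were highest in library 6, with Mdh2 at 458, 437 and 855 CPM. Of 17 genes of glycolysis and creatine kinase, 15 were highest in library 6. Ckb, the creatine kinase of osteoclasts, had 802.5, 660.0 and 1586 CPM. Gapdh had 607, 604 and 805 CPM, and Hk2 had 35.7, 28.9 and 28.8 CPM. The median CVs of these 3 lists were 25.6%, 22.5% and 15.7%, and without library 6 they were 7.98%, 6.43% and 7.59%.

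**Figure D5:**
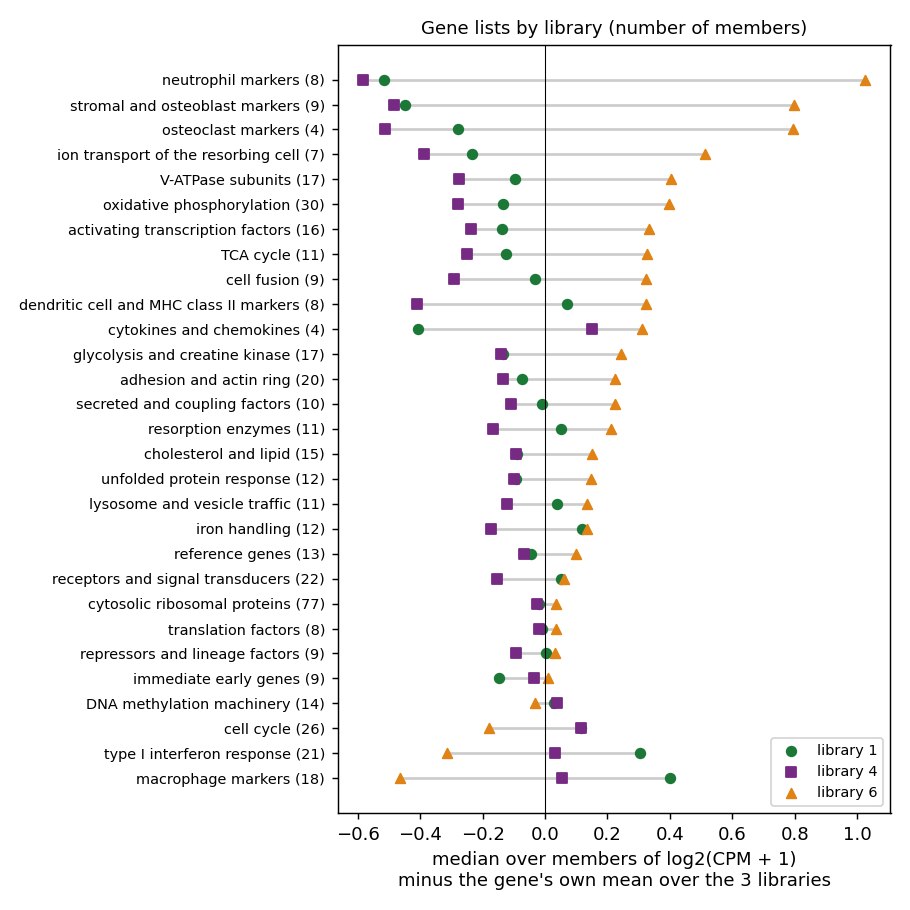
Median over each list's members of log2(CPM + 1) minus the gene's mean over the libraries, 1 point per library, lists ordered by library 6. Library 6 was above the other libraries for osteoclast, neutrophil and stromal markers and below for macrophage, interferon and cell cycle genes.

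Which library was highest depended little on the scaling for most of these lists. With library totals in place of TMM factors, 30 oxidative phosphorylation genes, 15 pump subunits and 7 genes of the ion transport list were highest in library 6. With DESeq2 size factors the counts were 30, 15 and 7 as well. TCA cycle genes numbered 10 and 11, genes of glycolysis and creatine kinase 15 and 15, and activating transcription factors 11 and 12. The count of macrophage markers highest in library 1 was 15 and 16, and of receptors and transducers lowest in library 4 it was 15 and 18. The order of libraries 1 and 4 did depend on it: of the glycolysis list 10 were lowest in library 4 and 5 in library 1 with TMM, against 6 and 9 with library totals. Of all members, 2862 were lowest in library 4 with TMM, 2307 with library totals and 3783 with DESeq2 size factors.

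Macrophage markers, 18 of 21 of which were members, had a median CV of 28.3% (18.2% without library 6), 7 were more than 2-fold apart, and 14 were lowest in library 6. Adgre1, the F4/80 antigen, had 755, 616 and 312 CPM, Mrc1, the mannose receptor, had 471, 309.9 and 177 CPM, and Cd14, the lipopolysaccharide coreceptor, had 80.5, 59.7 and 32.6 CPM. Mpeg1, a pore-forming protein, had 2331, 1721 and 1387 CPM. Clec4n, a lectin receptor, had 52.5, 51.8 and 57.0 CPM and differed least. Cx3cr1, Vsig4 and Marco were no members. Many of these genes are also expressed by osteoclasts and their precursors.

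Type I interferon response genes, 21 of 23 of which were members, followed a like order: 17 were highest in library 1 and 18 lowest in library 6. Their median CV was 24.2%, and 14.8% and 14.3% without library 1 and library 6. Rtp4 had 89.1, 63.5 and 34.4 CPM, Ddx58, the RNA sensor RIG-I, had 143, 128 and 61.7 CPM, and Irf7 had 124, 92.1 and 76.6 CPM. Mx1 differed little, with 20.5, 21.4 and 20.2 CPM. Cell cycle genes, 26 of 27 of which were members, had lower ranks (median rank 6563 against 4352 for members) and a median CV of 15.4% (4.51% without library 6), and 21 were lowest in library 6. Mki67, a marker of dividing cells, had 96.0, 91.5 and 61.5 CPM and Bub1b, a spindle checkpoint kinase, had 68.3, 72.3 and 34.3 CPM. With library totals 20, and with DESeq2 size factors 18, were lowest in library 6. Osteoclasts themselves are post-mitotic.

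Of 16 dendritic cell and MHC class II markers 8 were members, of which 4 were highest in library 6 and 4 in library 1. Cd74, the invariant chain, had 724, 501 and 1052 CPM, and H2-Aa had 191, 119 and 357.5 CPM, with H2-Ab1 and H2-Eb1 in the same order. The regulator Ciita (52.0, 43.6 and 48.0 CPM), the peptide loading genes H2-DMa and H2-DMb1, and the costimulatory ligand Cd86 were highest in library 1. The dendritic cell genes Flt3, Batf3, Clec9a and Xcr1 stayed below 1.5 CPM in all libraries. Of 17 cytokines and chemokines 4 were members, with a median CV of 26.9% (17.6% without library 1). Ccl9, an osteoclast chemokine, had 485, 728 and 943 CPM, whereas Il6, Il1b and Nos2 stayed near or below 1 CPM.

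The neutrophil and stromal markers gave the widest spreads of the lists, with median CVs of 69.8% and 53.6%. The 4 osteoclast markers followed closely at 52.0%. S100a8 had 27.5, 30.5 and 154 CPM and S100a9 had 73.7, 70.0 and 246 CPM, and 6 of 8 neutrophil members were more than 2-fold apart. Csf3r, the G-CSF receptor, was the exception to that order, with 80.3, 66.9 and 54.8 CPM. Col1a1 had 409, 388 and 1207 CPM and Col1a2 had 354, 353.5 and 969.9 CPM, and all 9 stromal members were highest in library 6 and more than 2-fold apart. Without library 6 the median CVs of the neutrophil, stromal and osteoclast markers were 7.23%, 14.9% and 11.9%. All osteoclast and stromal members and 7 of the 8 neutrophil members were thus highest in library 6. The relation between these lists was not tested.

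Genes of the translation machinery had low spreads. Of 81 cytosolic ribosomal protein genes 77 were members, with a median CV of 6.58% and 0 more than 2-fold apart. Their summed level was 42786, 43179 and 44884 CPM. The 8 translation factors had a median CV of 5.49%. Without library 6 these medians were 2.86% and 2.70%, and without library 1 they were 8.22% and 3.75%. Reference genes in common use had a median CV of 12.4% (4.19% without library 6). Ywhaz (400.3, 397 and 427 CPM), Tbp (mean 25.3 CPM) and Polr2a (262, 263 and 287 CPM) had CVs of 4.10%, 4.65% and 5.35%. B2m had 2137, 1389.5 and 1039 CPM, and Hprt had 122, 95.7 and 72.9 CPM, so both were highest in library 1 and lowest in library 6, with CVs of 36.9% and 25.4%.

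Iron genes (12 of 12 members) had a median CV of 15.8%, and 10 were lowest in library 4 (8 with library totals, 10 with DESeq2 size factors). Tfrc, the transferrin receptor, had 821, 560.4 and 806 CPM, and without library 4 the median CV of the list was 7.55%. Cholesterol and lipid genes (15 of 15 members) had a median CV of 13.5%. Npc2, a lysosomal cholesterol carrier, had 1652, 1365 and 1853 CPM. Genes of the unfolded protein response (12 of 12 members) had a median CV of 9.71% (2.34% without library 6), and 10 were highest in library 6. Calr, an endoplasmic reticulum chaperone, had 924, 914 and 1472 CPM, and Herpud1 had 101, 101 and 104 CPM. Immediate early genes, 9 of 14 of which were members, had a median CV of 12.3% (5.41% without library 1). Junb had 207, 198 and 204 CPM, while Btg2 had 28.5, 80.9 and 19.1 CPM and Egr1, no member, had 8.87, 35.1 and 16.0 CPM, both highest in library 4.

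The DNA methylation genes include the series' target genes, given here at their level in the libraries labelled wild-type. Of 19 genes 14 were members, with a median CV of 9.40% and 0 more than 2-fold apart. Dnmt3a, a methyltransferase that sets new marks, had 412, 404 and 502 CPM, and Dnmt1, which maintains them, had 117, 117 and 109 CPM. Of the enzymes that oxidise 5-methylcytosine, Tet3 had 143, 125 and 124 CPM, Tet2 had 70.9, 83.1 and 77.4 CPM, and Tet1, no member, had 2.88, 5.72 and 0.626 CPM. Dnmt3b had 3.46, 4.29 and 3.52 CPM and Dnmt3l stayed below 0.4 CPM. Idh1, which makes the cofactor of these oxidases, varied most among the members, with 377, 292 and 199 CPM.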

How the data were processed

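Poly(A) RNA was sequenced from 1 end over 75 bases from a stranded kit, per the labels' protocols; TopHat2 2.0.13, Bowtie2 2.2.3, SAMtools 0.1.19 and build mm10 are named in the submitters' processing notes. How reads were assigned to genes (program, strand setting, annotation) is not given in the sources used here; overlapping and antisense genes are therefore uncertain. The authors deposited raw counts per Ensembl gene, whole numbers and not normalized. Of 23264 rows, 60 repeated a gene and were dropped, and 185 had no symbol. Columns carry genotype but no replicate number.

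From the 3 wild-type columns, CPM was computed with TMM factors from edgeR 4.0.16 (R 4.3.3; filterByExpr, factors 0.987, 1.02 and 0.995 for libraries 1, 4 and 6). Members had 10 CPM or more in each library. CV, the ratio of highest to lowest library (threshold 2), and edgeR's dispersion in an intercept-only design described the spread. The dispersion step was also run on simulated data of lower spread than these libraries, with the genes raised in 1 library left out of the fit. That run cannot tell how accurate the dispersion is for these data. No hypothesis test was made. With 3 libraries each CV is imprecise, and CVs from counting alone cover counting error only. Lengths are merged exons of GENCODE M21 (99.8% of identifiers matched, and of the matches 99.3% had an identical start and end). Promoter windows are RefSeq's.

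The members, the 37 gene lists and the motifs were chosen with earlier results of these data known. Named are the 20 leading genes by CPM and 10 per kilobase, the 12 members with the highest and the 12 with the lowest CV at 50 CPM or more, up to 4 leading genes and the most variable member of each list, the 3 genes on each side of the floor, and a fixed set of osteoclast genes; predicted genes, ribosomal protein genes and near-identical copies were skipped (4 of ranks 1 to 24, all predicted), except that Lyz2 and genes with processed copies were kept and called uncertain. Other genes were chosen after their values were seen, to show members of a list that differ in direction or spread. Alternatives were library totals, DESeq2 1.42.0 size factors, no filter before TMM, floors of 5 and 20 CPM, a ratio of 3, SD of log2(CPM + 1), ranks per kilobase, and leaving out each library.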

Additional observations from a re-analysis of the deposited data

How the results depend on the processing

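Leaving out each library in turn gave 8697 to 8947 members, a median CV of 8.18% to 11.8% and 125 to 343 members more than 2-fold apart, the lowest CV and count without library 6; the cause was not tested. A floor of 5 CPM gave 822 members more than 2-fold apart and a floor of 20 CPM gave 330, as more or fewer genes enter. A ratio above 3 was met by 78. Library totals (507) and DESeq2 size factors (505) changed that count little. The SD of log2(CPM + 1) had a median of 0.17. List medians of CV moved by over 1.5 times for 20 of 29 lists without library 6, 4 without library 1 and 2 without library 4, and for 0 under either other scaling. The median CV of all members also moved by over 1.5 times without library 6, from 12.4% to 8.18%. Of the 20 leading genes of the whole table, 4 pseudogenes and Gh among them, 14 were among the leading 20 per kilobase and 16 to 19 when a library was left out. No paired analysis was possible because no groups were compared and the columns carry no replicate numbers. Over members, library 6 differs most from the others, whereas the common biological coefficient of variation was lowest without library 4 (24.4%). With 3 libraries the spread of a single gene is known only roughly, and 852 members vary less than counting alone would give.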
